A study of Homo sapiens with 24 samples.

Results

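Hypoxia-response genes, a set of 10 named genes that cells are known to switch on when oxygen is scarce, were followed across 24 microarrays of human embryonic stem cells. The set is BNIP3, BNIP3L, ADM, CA9, VEGFA, ANKRD37, EGLN3, NDRG1, KDM3A and P4HA1. Its members were all probe sets that the array annotation assigns to exactly 1 of these symbols. This gave 18 probe sets for 9 genes, out of 19775 genes with such a probe set in the whole series. CA9, a carbonic anhydrase of the cell surface, is not analysed here. Of the 18 probe sets, 15 passed a filter on low values (in either part, 3 or more of its 12 arrays over a log2 value of 5), and the 9 genes each had at least 1 of those. The remaining 3, an additional probe set each of ANKRD37 (242548_x_at), KDM3A (242758_x_at) and P4HA1 (243335_at), lay between log2 values of 2.62 and 5.14 on all 24 arrays.

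The cells were the lines H1, H9 and HSF1, the last a cell line and not the heat-shock factor of that name. Feeder-supported (FS) cultures grew on mouse embryonic fibroblasts, and feeder-free (FF) cultures grew without them. Each system received 250 nM AZD3965 (MCT1i), an inhibitor of the lactate transporter MCT1, or DMSO for 5 days, with 1 array per line and condition, so that the groups FS_MCT1i, FS_DMSO, FF_MCT1i and FF_DMSO each held 3 arrays, 1 from each line. In a second part, feeder-free HSF1 and H9 cells were kept in medium conditioned by the mouse fibroblasts (CM) or in unconditioned medium (UCM), with 3 biological replicates per line and medium. The labels give 5 days for the conditioned medium and the design text gives 24 hours. The labels record no change of oxygen, and HIF protein was not measured here. The comparisons ask how feeder cells, what feeders release into the medium, and a block of lactate transport alter the RNA of these cells.

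Most members are textbook targets of the hypoxia-inducible factors (HIFs). A HIF alpha subunit is made continuously, hydroxylated by oxygen-dependent prolyl hydroxylases such as EGLN1 and EGLN3, bound by VHL and degraded. When oxygen falls, or when the hydroxylases are inhibited, the subunit persists, pairs with ARNT and binds short promoter and enhancer motifs with the core ACGTG or GCGTG. The products raise oxygen supply, shift metabolism towards glycolysis, clear mitochondria and remodel matrix. Pluripotent stem cells are known for a strongly glycolytic metabolism even where oxygen is ample.

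The upstream sequence of 4 members is shown as examples of members called in conditioned medium: BNIP3 was higher in both lines, ANKRD37 and P4HA1 were higher in HSF1 cells, and ADM was lower in both lines. Each line holds the 250 bases before the annotated start, 5′ to 3′ on the gene's own strand, from RefSeq on GRCh38.p14, with matches to ACGTG on either strand (ACGTG or CACGT) in capitals.
BNIP3, chr10:131981924-131982173, minus strand: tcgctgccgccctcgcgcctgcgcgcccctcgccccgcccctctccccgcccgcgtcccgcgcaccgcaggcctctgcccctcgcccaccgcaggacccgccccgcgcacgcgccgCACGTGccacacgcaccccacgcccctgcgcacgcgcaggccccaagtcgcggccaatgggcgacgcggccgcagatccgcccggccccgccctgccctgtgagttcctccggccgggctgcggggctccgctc
ANKRD37, chr4:185396591-185396840, plus strand: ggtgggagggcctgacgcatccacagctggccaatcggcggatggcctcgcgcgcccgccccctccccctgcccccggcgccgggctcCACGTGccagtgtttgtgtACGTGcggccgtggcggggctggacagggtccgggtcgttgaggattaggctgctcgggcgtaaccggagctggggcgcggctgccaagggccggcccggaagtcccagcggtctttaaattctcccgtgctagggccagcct
P4HA1, chr10:73096867-73097116, minus strand: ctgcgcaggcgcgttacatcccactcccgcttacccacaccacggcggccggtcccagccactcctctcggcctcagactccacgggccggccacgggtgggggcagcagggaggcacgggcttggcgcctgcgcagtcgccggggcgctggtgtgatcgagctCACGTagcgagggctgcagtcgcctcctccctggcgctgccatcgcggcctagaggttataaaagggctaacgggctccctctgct
ADM, chr11:10304823-10305072, plus strand: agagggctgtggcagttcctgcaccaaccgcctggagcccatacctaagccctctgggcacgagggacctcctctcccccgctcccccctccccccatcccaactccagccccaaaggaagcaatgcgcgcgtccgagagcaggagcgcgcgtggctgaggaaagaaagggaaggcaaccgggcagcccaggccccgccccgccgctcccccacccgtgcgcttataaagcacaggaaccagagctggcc
BNIP3 and ANKRD37 each carried the letters CACGTG, where a match on one strand overlaps a match on the other, starting 134 and 162 bases before the start. ANKRD37 had 1 further ACGTG, 143 bases before the start. P4HA1 had 1 CACGT, 86 bases before its start. ADM had no ACGTG in this window and 1 GCGTG, 101 bases before the start. BNIP3 also had 4 matches to GCGTG, on the other strand. KDM3A and EGLN3, which were also higher in both lines, held no ACGTG in their windows. KDM3A held 1 GCGTG, 26 and 116 bases before its annotated starts, and EGLN3 held no GCGTG. Across the 7 members with an upstream sequence (8 regions), 4 held ACGTG on either strand. The fourth was CA9, which was not analysed on the arrays. GCGTG was held by BNIP3, ADM and KDM3A. Over all 35116 upstream regions of this length, 18.5% held ACGTG and 32.2% held GCGTG on either strand. Those shares count regions, whereas the members are counted by gene. These are matches of letters and not sites shown to be bound.

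Of 10 pluripotency markers, 8 had a probe set of their own, and these 8 were above a log2 value of 5 on every array. Both feeder-supported HSF1 arrays stood apart, with a median correlation of 0.90 (DMSO) and 0.89 (inhibitor) to the others, against 0.96 to 0.99 for the other 22. Replicates 2 and 3 of H9_UCM had a 3-prime minus 5-prime ACTB difference, a sign of RNA degradation, of 3.25 and 2.89, against 1.42 to 1.84 in H9_CM and 1.07 in replicate 1. Where stated, results on the members are also given without these arrays. Of 30 named genes outside the set that were called on feeders with DMSO, 29 were called without both feeder-supported HSF1 arrays. Many of these named genes were chosen for a small p in this same comparison, so that count does not test their robustness. Of 21 called in H9_CM, 11 were called without replicates 2 and 3 of H9_UCM, a fit in which 653 genes passed in all, against 2720 with them. Levels are log2 values of 1 probe set per gene, and values of different genes are not on a common scale.

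On feeders VEGFA was called higher and KDM3A lower with either treatment, and with the inhibitor NDRG1 was also called higher and BNIP3L lower. Differences were tested with limma, and a member is called at an adjusted p (Benjamini-Hochberg over all genes of a part) below 0.05. The other probe set of BNIP3L differed by 0.01 with the inhibitor (adjusted p = 0.958). The calls of KDM3A, NDRG1 and BNIP3L depended on the arrays and settings used, as given below. RNA of the mouse feeders and a response of the human cells cannot be told apart here. With DMSO, 1 of 9 members was higher and 1 was lower in FS than in FF cells, against 15.2% of all 17218 genes tested higher and 24.1% lower (39.3% in either direction). The members' median difference was -0.06, beside -0.19 over all genes. With the inhibitor, 2 members were higher (VEGFA and NDRG1) and 2 lower (BNIP3L and KDM3A), against 19.3% of genes higher and 27.8% lower (47.1% in either direction), with medians of 0.15 for the members and -0.20 for all genes. The share of members past the threshold was therefore near or below the share of all genes in both comparisons. These comparisons share no array, but they share the 3 lines. After quantile normalization the median over all genes moved by 0.23 in both comparisons, to 0.04 with DMSO and 0.03 with the inhibitor. Of the genes called with DMSO, 38.7% were higher in FS cells, and 50.6% after that normalization. Without both feeder-supported HSF1 arrays 4 members passed with DMSO and 7 with the inhibitor. The share of all genes in that fit is not given, so these counts cannot be set against it.

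Conditioned medium mostly raised the members that it changed, 5 of 6 in HSF1 cells and 3 of 4 in H9 cells. In HSF1 cells BNIP3, ANKRD37, P4HA1, KDM3A and EGLN3 were higher and ADM was lower, which is 5 of 9 higher and 1 of 9 lower against 8.57% and 9.78% of all 16572 genes tested (18.3% in either direction). In H9 cells BNIP3, EGLN3 and KDM3A were higher and ADM was lower, 3 and 1 of 9 against 3.45% and 13.0% of genes (16.4% in either direction). The members' median difference was 0.34 in HSF1 and 0.17 in H9 cells, beside 0.03 and -0.03 over all genes. The difference between the lines was past the threshold for 1 member, ANKRD37, against 7.73% of genes.

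Under AZD3965 BNIP3 had the largest mean difference of the 9 members, upwards in all 6 pairs of inhibitor and DMSO arrays, but no member passed with line as a block. In limma 0 of 9 members passed in FS cells, 0 in FF cells and 0 for the mean of both, against 0.00581%, 0.842% and 0.639% of genes, while 1, 0 and 1 had an unadjusted p below 0.05. No member passed for the difference between the culture systems (0.0174% of genes, 0 of 9 at an unadjusted p below 0.05). With each pair of arrays as its own block, which the shared line and culture system justify, 1 member rose in FS cells (0.499% of genes), 2 rose and 1 fell in FF cells (14.0%), and 5 rose and 1 fell for the mean of both (15.9%). For that mean 5 of 8 pluripotency markers were lower and none higher in the same fit, and 2 of 12 fibroblast markers were higher and none lower, and their part in the members' values was not tested. The members' median for the mean of both was 0.21, beside 0.00 over all genes. Of the genes called for that mean with line as a block, 73.6% were higher, and 62.0% after quantile normalization.

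**Figure D1:**
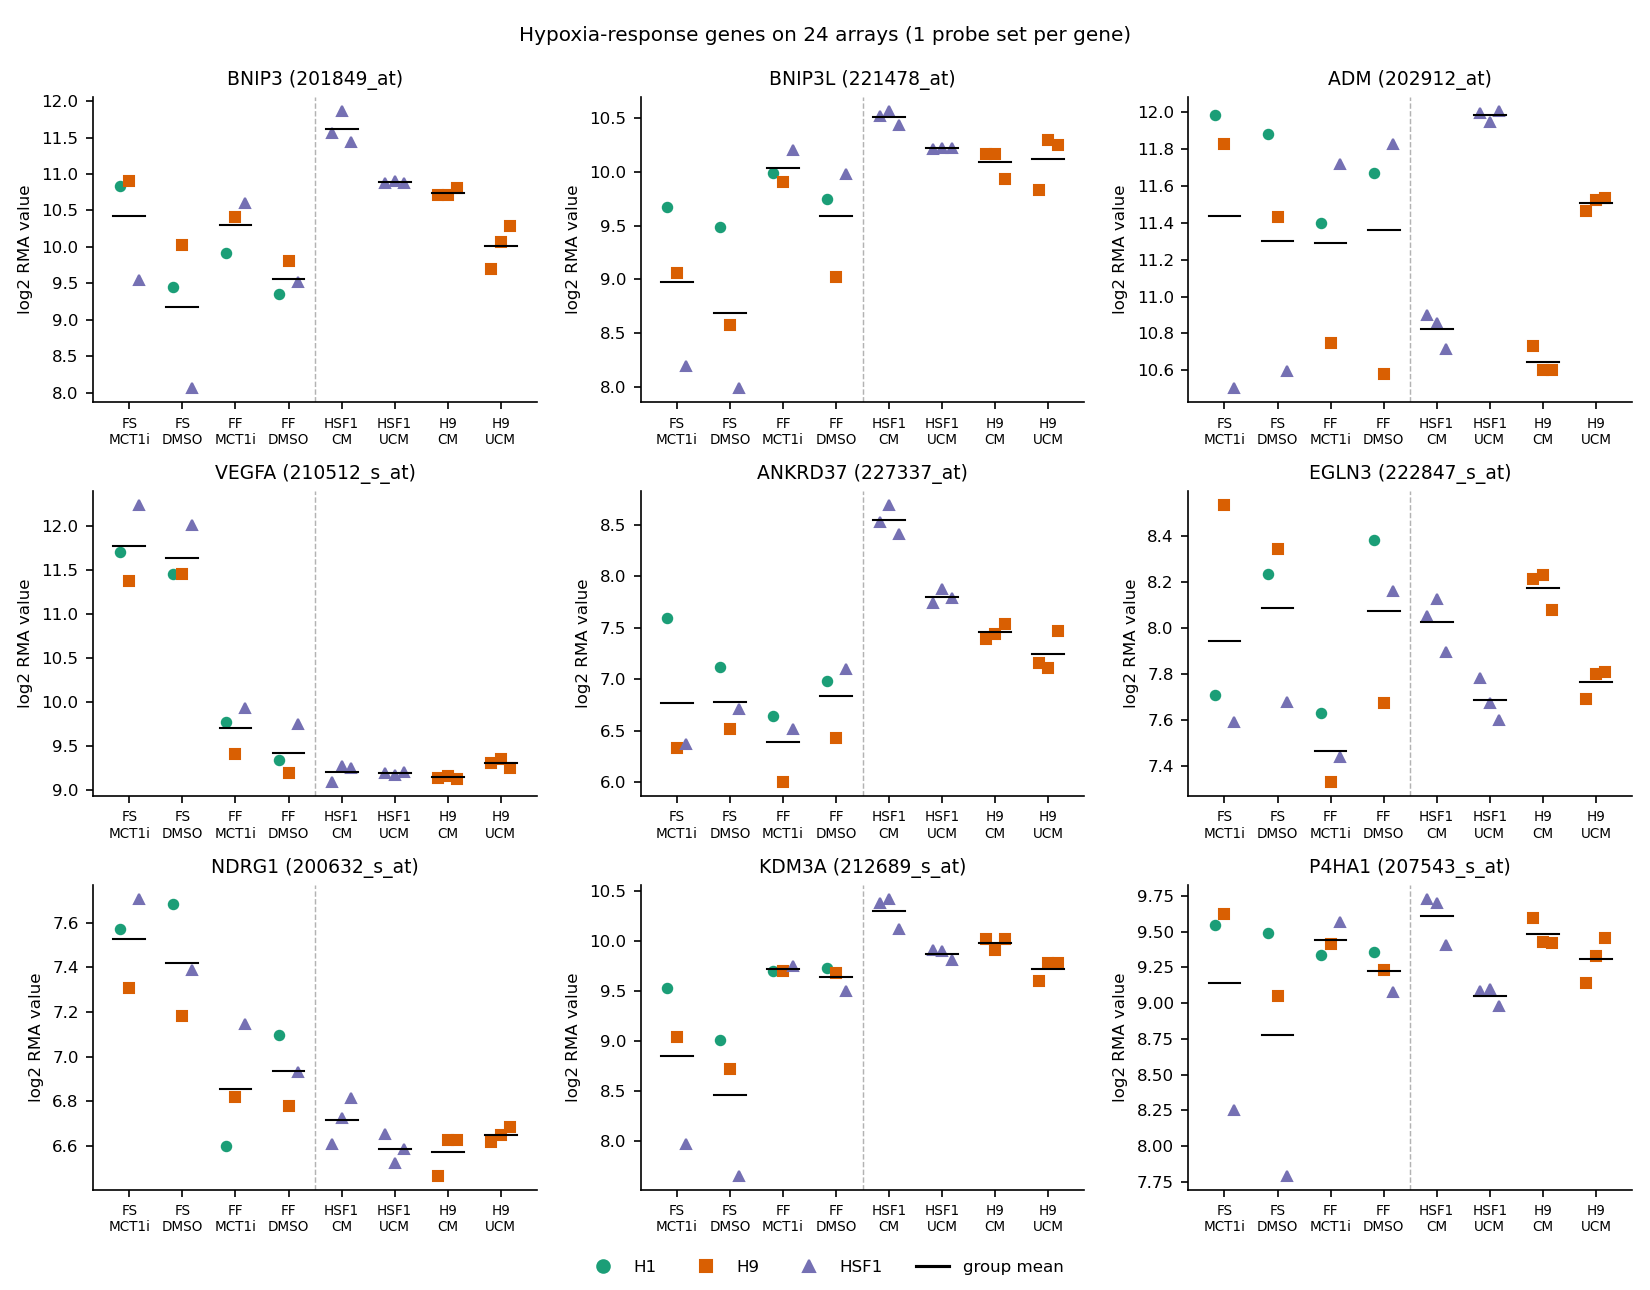
Log2 RMA values (y axis) of 1 probe set for each of the 9 genes on the 24 arrays (x axis, 8 groups), with 1 point per array, colour and shape for the line, and a bar at the mean of 3. VEGFA lies between 11.38 and 12.24 on the feeder-supported arrays and at 9.93 or below on all others, while ADM is lower in CM than in UCM in both lines.

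VEGFA encodes a secreted growth factor that drives blood vessel growth and is a well known HIF target. On its brightest probe set (210512_s_at) it stood at 11.45, 11.45 and 12.01 in FS_DMSO cells of H1, H9 and HSF1, against 9.33, 9.19 and 9.74 in FF_DMSO cells. The groups did not overlap, and every line shifted by a similar amount (2.11, 2.26 and 2.27). The difference was 2.21 on the log2 scale, a 4.64-fold higher level (SE 0.173, adjusted p = 4.52e-05, 3 of 3 lines).

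With the inhibitor VEGFA stood at 11.70, 11.38 and 12.24 in FS cells, against 9.77, 9.41 and 9.93 in FF cells. Again the groups did not overlap, and the difference was 2.07 (SE 0.173, adjusted p = 5.74e-05). Without both feeder-supported HSF1 arrays VEGFA passed in both comparisons as well, and it passed under all 12 alternatives, with values between 1.15 and 2.50 for DMSO and between 1.02 and 2.34 for the inhibitor. The labels do not say that feeders were removed before RNA was taken. RNA of the mouse feeders and a response of the human cells cannot be told apart in these arrays, and nor can a change in the share of a cell type and a change per cell.

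The 4 VEGFA probe sets differed in size of effect. With DMSO the differences were 2.21 (210512_s_at), 1.20 (210513_s_at, adjusted p = 0.00399), 0.96 (211527_x_at, adjusted p = 0.016) and 0.21 (212171_x_at, adjusted p = 0.36), in a fit in which 39.5% of all probe sets passed. With the inhibitor they were 2.07, 1.27, 0.77 and -0.02, the first 3 past the threshold, where 47.2% of probe sets passed. An x in the name marks a set whose probes may also match other sequences, and the set with no call is one of these. The dimmest set, 211527_x_at, lay at 5.35 to 5.51 in FF_DMSO cells, near the filter value of 5.

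**Figure D2:**
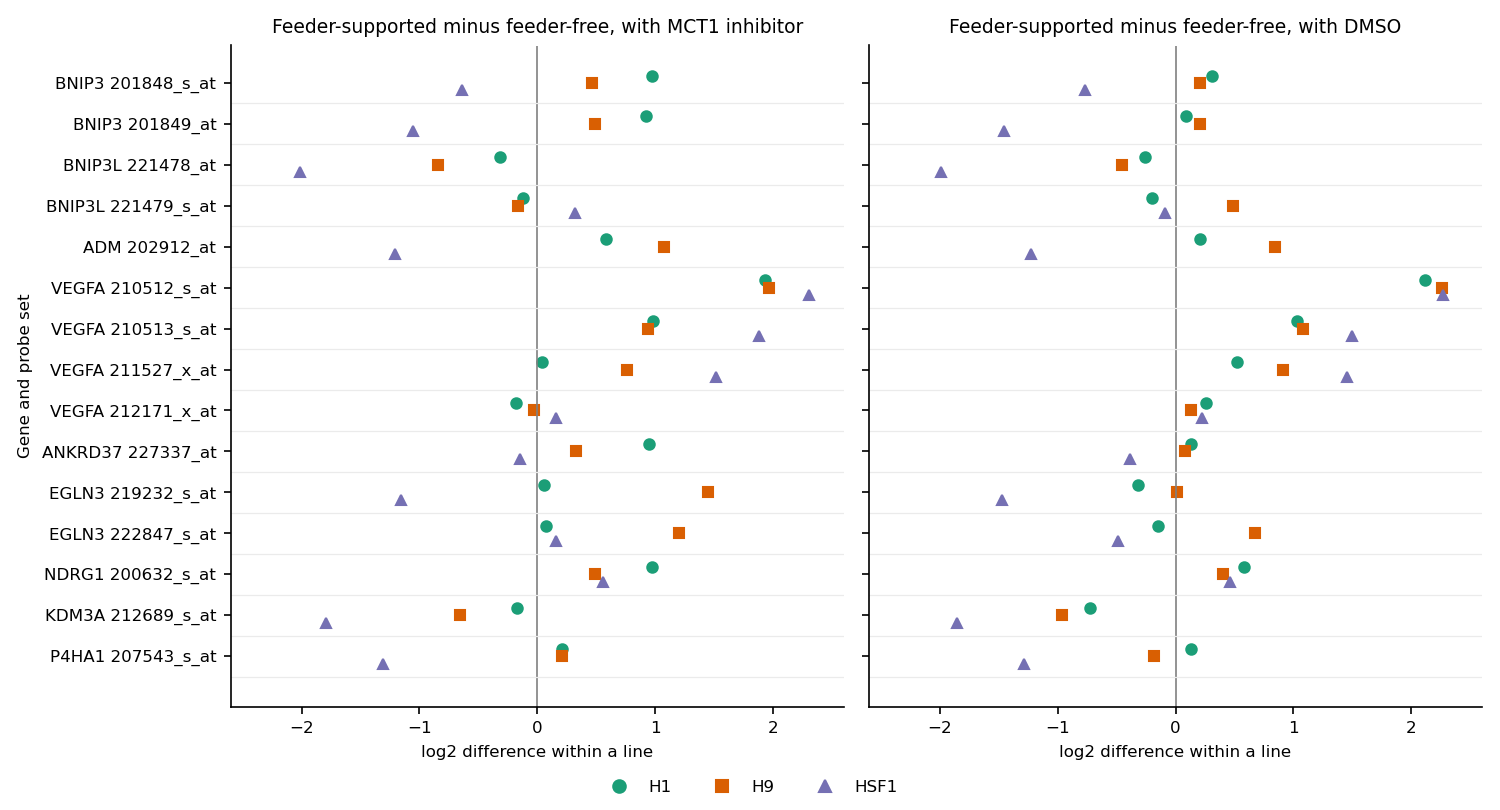
Log2 difference of feeder-supported minus feeder-free arrays (x axis) within each line, for the 15 tested probe sets (y axis), with the inhibitor on the left and with DMSO on the right. The first 3 VEGFA probe sets lie to the right of 0 in all lines. HSF1 is far to the left of H1 and H9 for BNIP3, BNIP3L (221478_at), ADM, EGLN3 (219232_s_at), KDM3A and P4HA1.

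Conditioned medium gave no call for VEGFA in either line. In HSF1 cells it stood at 9.09, 9.27 and 9.25 in CM, against 9.19, 9.17 and 9.21 in UCM. These groups overlapped, with a difference of 0.01 (95% interval -0.13 to 0.16, adjusted p = 0.912). In H9 cells the values were 9.14, 9.16 and 9.12 in CM and 9.31, 9.35 and 9.24 in UCM, without overlap, and the difference of -0.16 did not pass (SE 0.068, adjusted p = 0.116). All 12 arrays of the medium part lay between 9.09 and 9.35. Of the 8 groups, FS_MCT1i and FS_DMSO ranked first and second and did not differ beyond their spread.

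Among 8 listed receptors of VEGFA and ADM, 2 were higher and 1 lower with DMSO in FS cells, against 39.3% of all genes in either direction, and 1 and 0 after quantile normalization. KDR, the main signalling receptor of VEGFA, was at 8.10 ± 1.61 in FS_DMSO and 9.08 ± 0.70 in FF_DMSO cells (SD, n = 3 each), a difference of -0.98 (SE 0.349, adjusted p = 0.0442). NRP2, a co-receptor, was higher by 0.59 (adjusted p = 0.0322), and RAMP1, a partner of the adrenomedullin receptor, by 0.54 (adjusted p = 0.0494). KDR held in 6 and RAMP1 in 3 of 12 alternatives. Without both feeder-supported HSF1 arrays KDR was at -0.39 (adjusted p = 0.0428) and RAMP1 at 0.30 (adjusted p = 0.0656). In conditioned medium NRP2 was lower in both lines, with differences of -0.34 in HSF1 (adjusted p = 0.00421) and -0.77 in H9 cells (adjusted p = 4.72e-06). NRP1 and FLT1 were higher in HSF1 cells, by 0.61 and 0.25 (adjusted p = 0.00191 and 0.00671).

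Some fibroblast and endothelial markers differed with feeder support. Of 12 fibroblast markers, 5 were higher and none lower in FS_DMSO than in FF_DMSO cells, among them TWIST1, a mesenchymal transcription factor, by 3.74 and COL3A1, a fibrillar collagen, by 2.42. Their summed level, as log2 of the sum of linear values, was 12.21 to 13.42 in FS_DMSO and 11.90 to 12.90 in FF_DMSO arrays, so the groups overlapped. Of 6 endothelial markers 4 were higher and 1 lower, against 15.2% and 24.1% of all genes. After quantile normalization 2 of 5 endothelial markers tested were higher and none lower, and 4 of 12 fibroblast markers were higher and none lower. With the inhibitor 3 of 12 fibroblast markers were higher and 2 lower in FS cells (4 and 2 after that normalization). Of the 6 endothelial markers 2 were higher and none lower with the inhibitor. The shares of all genes there were 19.3% and 27.8%. The endothelial markers' summed level was 9.05 to 9.51 in FS_DMSO and 8.90 to 10.07 in FF_DMSO arrays. CDH5, a defining endothelial cadherin, averaged 5.16 in FS_DMSO and 4.52 in FF_DMSO cells, about the filter value. The 8 pluripotency markers summed to 15.45 to 15.76 in FS_DMSO and 15.92 to 15.98 in FF_DMSO arrays. The part of these markers in the VEGFA difference was not tested.

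ADM encodes adrenomedullin, a secreted peptide that widens vessels, and it was the only member called lower in conditioned medium. In HSF1 cells it stood at 10.90, 10.86 and 10.72 in CM, against 11.99, 11.95 and 12.002 in UCM. H9 cells had 10.73, 10.60 and 10.60 in CM, against 11.46, 11.52 and 11.53 in UCM. No CM array reached the lowest UCM array of its line.

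ADM fell by 1.16 on the log2 scale in HSF1 cells, a 2.23-fold lower level (SE 0.062, adjusted p = 3.02e-09). The difference in H9 cells was -0.86, a 1.81-fold lower level (SE 0.062, adjusted p = 2.06e-07). Both calls held under all 21 alternatives, among them the fit without replicates 2 and 3 of H9_UCM. HSF1 cells minus H9 cells gave -0.30 for the effect of CM, which did not pass (SE 0.088, adjusted p = 0.0509), and the adjusted p ran from 0.034 to 0.125 over the alternatives. It fell below the threshold in 5 of these 21.

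On feeders ADM differed in sign between the lines. With DMSO it stood at 11.88, 11.43 and 10.60 in FS cells of H1, H9 and HSF1, against 11.67, 10.58 and 11.82 in FF cells. H1 and H9 were higher on feeders by 0.21 and 0.85, and HSF1 was lower, with -1.23. The mean difference of -0.06 did not pass (SE 0.414, adjusted p = 0.913), and without both feeder-supported HSF1 arrays it was 0.52 (adjusted p = 0.0281). With the inhibitor the within-line differences were 0.58, 1.08 and -1.21, with a mean of 0.15 (adjusted p = 0.771) and 0.84 without those arrays (adjusted p = 0.00446). Under AZD3965 ADM differed by -0.27 to 0.39 within lines and passed with neither block (adjusted p = 0.997 and 0.813).

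BNIP3 encodes a protein of the outer mitochondrial membrane that recruits the autophagy machinery and so promotes mitophagy, the removal of mitochondria. Conditioned medium raised it by about the same amount in both lines. On probe set 201849_at it stood at 11.55, 11.86 and 11.44 in HSF1_CM, against 10.87, 10.91 and 10.88 in HSF1_UCM. H9 cells had 10.71, 10.71 and 10.80 in CM, against 9.70, 10.06 and 10.29 in UCM. CM and UCM arrays did not overlap in either line.

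The BNIP3 difference was 0.73 in HSF1 cells, or 1.66-fold (SE 0.119, adjusted p = 0.000437), and 0.72 in H9 cells, or 1.65-fold (SE 0.119, adjusted p = 0.00074). The difference between the lines was 0.01 (95% interval -0.35 to 0.37, adjusted p = 0.986). On the other probe set (201848_s_at) the differences were 0.84 and 0.86 (adjusted p = 0.000604 and 0.000858), where 11.4% of probe sets passed in HSF1 and 10.1% in H9 cells. Both calls held under all 21 alternatives. Without replicates 2 and 3 of H9_UCM the H9 difference was 1.04 (adjusted p = 7.69e-05).

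AZD3965 was followed by higher BNIP3 in every pair. On feeders the level was 10.84, 10.90 and 9.54 with the inhibitor in H1, H9 and HSF1, against 9.45, 10.02 and 8.06 with DMSO. Without feeders it was 9.91, 10.41 and 10.60 with the inhibitor, against 9.36, 9.81 and 9.52 with DMSO. The feeder-free groups did not overlap, and the feeder-supported groups overlapped, HSF1 being low in both.

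The mean BNIP3 difference was 1.00, a 2.00-fold higher level (95% interval 0.40 to 1.60, 6 of 6 pairs). With line as a block it did not pass (SE 0.273, adjusted p = 0.188). With each pair of arrays as a block it passed, at SE 0.093 and adjusted p = 3.74e-05, as it did in FS cells alone (1.25, adjusted p = 0.00123) and in FF cells alone (0.74, adjusted p = 0.00227). Without both feeder-supported HSF1 arrays, and with line as a block, it was 0.94 (adjusted p = 0.00283). The FS effect exceeded the FF effect by 0.51 (95% interval -0.69 to 1.70), which passed with neither block (adjusted p = 1.00 and 0.287). The second probe set gave 0.79 for the mean (adjusted p = 0.241 with line as a block).

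On feeders BNIP3 differed by line. With DMSO the FS minus FF difference was 0.09 in H1, 0.21 in H9 and -1.46 in HSF1, with a mean of -0.39 that did not pass (SE 0.387, adjusted p = 0.403) and 0.23 without both feeder-supported HSF1 arrays (adjusted p = 0.235). With the inhibitor it was 0.93, 0.49 and -1.05, with a mean of 0.12 (adjusted p = 0.798) and 0.63 without those arrays (adjusted p = 0.0116).

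BNIP3L, the close relative of BNIP3 and also a mitophagy receptor, passed in neither line in conditioned medium. It stood at 10.52, 10.56 and 10.44 in HSF1_CM, against 10.21, 10.23 and 10.22 in HSF1_UCM, without overlap. The difference of 0.29 missed the threshold (SE 0.102, adjusted p = 0.0632), and it passed in 6 of 21 alternatives. In H9 cells it stood at 10.17, 10.17 and 9.93 in CM, against 9.83, 10.29 and 10.25 in UCM, with a difference of -0.03 (95% interval -0.25 to 0.18, adjusted p = 0.834). The other probe set (221479_s_at) gave 0.10 in HSF1 and 0.38 in H9 cells, and neither passed (adjusted p = 0.682 and 0.0631).

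On feeders BNIP3L was lower in every line on probe set 221478_at. With the inhibitor it stood at 9.67, 9.06 and 8.19 in FS cells of H1, H9 and HSF1, against 9.99, 9.90 and 10.20 in FF cells. The log2 difference was -1.06, the same way in 3 of 3 lines (SE 0.367, adjusted p = 0.0362). With DMSO the difference was -0.90, which did not pass (adjusted p = 0.0648), and -0.41 without both feeder-supported HSF1 arrays (adjusted p = 0.0806). The call with the inhibitor ended without H1 (adjusted p = 0.0736), without H9 (adjusted p = 0.0967) and after quantile normalization (-0.61, adjusted p = 0.107), and held without both feeder-supported HSF1 arrays (-0.52, adjusted p = 0.0382). The other probe set (221479_s_at) showed no such fall, with 0.01 and 0.07 (adjusted p = 0.958 and 0.798). With the inhibitor against DMSO, BNIP3L was higher in 6 of 6 pairs, by a mean of 0.37 (adjusted p = 0.885 with line as a block, 0.0161 with each pair as a block), but on 221479_s_at by 0.09 (adjusted p = 0.994).

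Of 17 tested genes of mitophagy and autophagy 1 was higher and 3 lower in HSF1_CM, against 8.57% and 9.78% of all genes. In H9_CM none was higher and 4 were lower, against 3.45% and 13.0%. SQSTM1, an autophagy cargo receptor, was lower, with a log2 difference of -0.56 in HSF1 and -0.55 in H9 cells (adjusted p = 6.06e-05 and 0.00013). OPTN, a receptor for damaged mitochondria, was lower, with a log2 difference of -0.95 in H9 cells (adjusted p = 7.62e-07). PINK1, a kinase that marks damaged mitochondria, was higher by 0.33 in HSF1 cells (adjusted p = 0.011). On feeders 2 of the 17 were lower with DMSO, against 24.1% of all genes. These were ULK1 at -0.98 and OPTN at -0.74 (adjusted p = 0.00909 and 0.0287), but after quantile normalization 3 were higher and 1 lower.

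**Figure D3:**
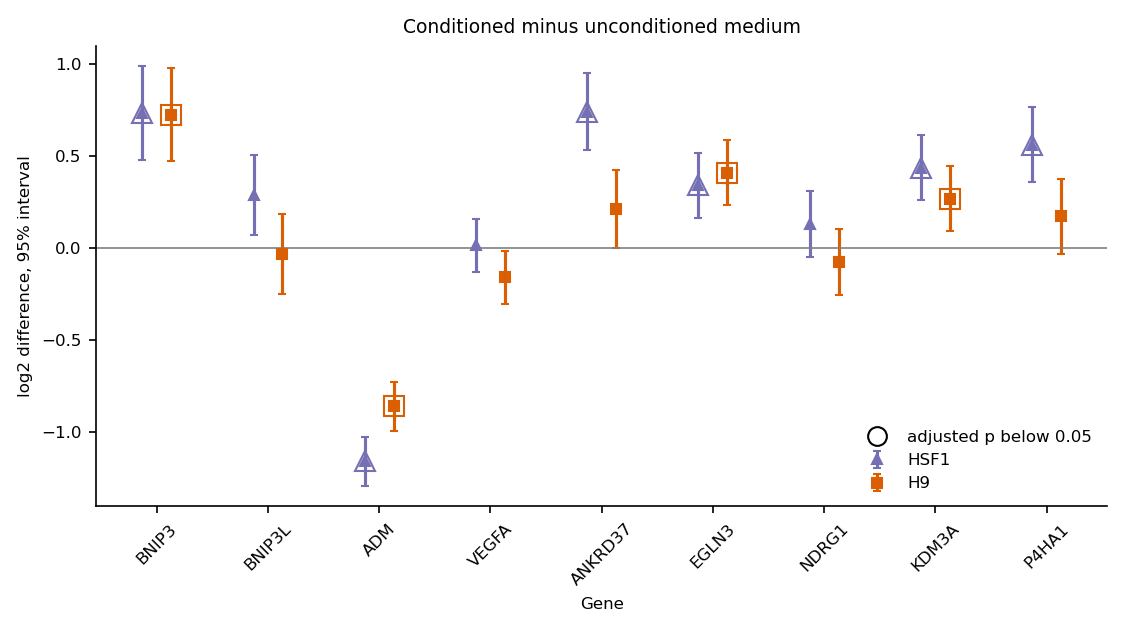
Log2 difference of conditioned minus unconditioned medium (y axis) for the 9 genes (x axis), with HSF1 as triangles and H9 as squares, 95% intervals of the fit, and an outline where the adjusted p was below 0.05. BNIP3, EGLN3 and KDM3A lie above 0 and ADM lies below 0 in both lines, with ANKRD37 and P4HA1 outlined in HSF1 alone.

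EGLN3 encodes a prolyl hydroxylase that marks HIF alpha subunits for degradation and is itself a HIF target. It stood at 8.05, 8.13 and 7.90 in HSF1_CM, against 7.78, 7.67 and 7.60 in HSF1_UCM. H9 cells had 8.21, 8.23 and 8.08 in CM, against 7.69, 7.80 and 7.81 in UCM. Neither line had an overlap.

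EGLN3 was higher in CM by 0.34 in HSF1 (SE 0.083, adjusted p = 0.00904) and by 0.41 in H9 cells (SE 0.083, adjusted p = 0.00354). The second probe set (219232_s_at) gave 0.62 and 0.43 (adjusted p = 0.0014 and 0.0201). Without replicates 2 and 3 of H9_UCM the H9 difference was 0.48 (adjusted p = 0.0229). The HSF1 call ended without replicate 3 of HSF1_UCM (0.30, adjusted p = 0.0548).

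Under AZD3965 EGLN3 was lower in feeder-free cells. In feeder-free cells EGLN3 stood at 7.63, 7.33 and 7.44 with the inhibitor in H1, H9 and HSF1, against 8.38, 7.67 and 8.16 with DMSO, without overlap. The difference of -0.61 did not pass with line as a block (SE 0.28, adjusted p = 0.651) and passed with each pair as a block (SE 0.141, adjusted p = 0.012). On feeders the differences were -0.53, 0.19 and -0.08 in H1, H9 and HSF1. The difference between the systems, 0.47, did not pass with either block (adjusted p = 1.00 and 0.396). In FF cells fibroblast markers summed to 12.73 to 13.15 with the inhibitor and 11.90 to 12.90 with DMSO, and their part in these values was not tested. No feeder difference of EGLN3 passed with DMSO, with 0.01 on this probe set (95% interval -0.60 to 0.63) and -0.59 on the other (adjusted p = 0.24).

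KDM3A encodes an oxygen-dependent enzyme that removes methyl groups from histone H3 lysine 9. It was lower on feeders in every line, at 9.01, 8.72 and 7.65 in FS_DMSO cells of H1, H9 and HSF1, against 9.73, 9.68 and 9.50 in FF_DMSO cells. KDM3A fell by 1.18 on the log2 scale, a 2.27-fold lower level (SE 0.304, adjusted p = 0.0168, 3 of 3 lines), with HSF1 lowest. The call ended without H1 (-1.41, adjusted p = 0.0599) and without H9 (-1.29, adjusted p = 0.095). It also ended with the ACTB difference as a covariate (-0.54, adjusted p = 0.407) and with no replicate block (adjusted p = 0.0638). It held without both feeder-supported HSF1 arrays (-0.80, adjusted p = 0.00259).

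With the inhibitor KDM3A stood at 9.53, 9.04 and 7.96 in FS cells, against 9.70, 9.70 and 9.75 in FF cells. The groups did not overlap, and the difference was -0.87 (SE 0.304, adjusted p = 0.0365). This call held in 4 of 12 alternatives, among them the fit without both feeder-supported HSF1 arrays (-0.46, adjusted p = 0.026). It ended without any one of the 3 lines (adjusted p = 0.0751, 0.109 and 0.0636 without H1, H9 and HSF1) and after quantile normalization (-0.45, adjusted p = 0.16).

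Conditioned medium raised KDM3A. In HSF1 cells it stood at 10.38, 10.43 and 10.12 in CM, against 9.91, 9.90 and 9.81 in UCM, a difference of 0.43 (SE 0.083, adjusted p = 0.00164) without overlap. In H9 cells it stood at 10.02, 9.91 and 10.02 in CM, against 9.60, 9.79 and 9.78 in UCM, a difference of 0.27 (SE 0.083, adjusted p = 0.0392), also without overlap. Without replicates 2 and 3 of H9_UCM it was 0.39 (adjusted p = 0.0522). The H9 call held in 8 of 21 alternatives, and leaving out any one H9_CM array, replicate 1 or 3 of H9_UCM, or any one HSF1_UCM array ended it (adjusted p = 0.0536 to 0.111).

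P4HA1 encodes a catalytic subunit of collagen prolyl 4-hydroxylase, which uses oxygen to stabilise the collagen helix. It stood at 9.73, 9.70 and 9.41 in HSF1_CM, against 9.08, 9.10 and 8.98 in HSF1_UCM, without overlap. The difference was 0.56, or 1.47-fold (SE 0.096, adjusted p = 0.000682), and held under all 21 alternatives. H9 cells had 9.59, 9.43 and 9.42 in CM, against 9.14, 9.33 and 9.45 in UCM. These overlapped, with a difference of 0.17 (SE 0.096, adjusted p = 0.227), and the lines did not differ past the threshold (0.39, adjusted p = 0.0904).

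On feeders P4HA1 was near its feeder-free level in H1 and H9 (0.13 and -0.19 with DMSO) and lower in HSF1 (-1.28), and the mean of -0.45 did not pass (adjusted p = 0.273). Without both feeder-supported HSF1 arrays P4HA1 was at 0.04 with DMSO (adjusted p = 0.842). Under AZD3965 its mean difference was 0.29, higher in 5 of 6 pairs (adjusted p = 0.93 with line as a block, 0.0422 with each pair as a block). P4HA2, the paralog subunit, was also higher in HSF1_CM, by 0.78 (SE 0.093, adjusted p = 1.93e-05). Of 11 other collagen-modifying enzymes only PLOD2, a lysyl hydroxylase, passed in HSF1_CM (0.30, adjusted p = 0.0429), where 8.57% of all genes were higher. In H9_CM 2 of the 11 were lower, against 13.0% of all genes. These were P3H2, a prolyl 3-hydroxylase, at -0.97 and LOXL2, a lysyl oxidase, at -0.35 (adjusted p = 3.37e-06 and 0.0182). Without replicates 2 and 3 of H9_UCM LOXL2 did not pass (-0.33, adjusted p = 0.201).

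ANKRD37, a small ankyrin-repeat protein whose function is little known, responded to conditioned medium in HSF1 cells. It stood at 8.52, 8.69 and 8.41 in HSF1_CM, against 7.74, 7.87 and 7.79 in HSF1_UCM, without overlap. The difference was 0.74, or 1.67-fold (SE 0.099, adjusted p = 6.42e-05), and held under all 21 alternatives. In H9 cells it stood at 7.39, 7.44 and 7.54 in CM, against 7.15, 7.11 and 7.47 in UCM. These overlapped, with a difference of 0.21 (SE 0.099, adjusted p = 0.151).

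The test of the difference itself gave 0.53 for the CM effect in HSF1 minus that in H9 cells (SE 0.140, adjusted p = 0.0318). Without replicates 2 and 3 of H9_UCM it was 0.44 (adjusted p = 0.103). That call held in 9 of 21 alternatives, and the adjusted p ran from 0.00474 to 0.139. In HSF1 cells the fibroblast markers summed to 11.79 to 11.93 in CM and 12.59 to 12.73 in UCM, and in H9 cells to 12.29 to 12.47 in CM and 12.24 to 12.60 in UCM. Their part in the difference was not tested. In FF cells ANKRD37 was lower with AZD3965 in 3 of 3 lines, by -0.34, -0.43 and -0.59, which passed with neither block (adjusted p = 0.725 and 0.0617). On feeders ANKRD37 differed by -0.06 with DMSO and by 0.38 with the inhibitor, and neither passed (adjusted p = 0.833 and 0.164). Without both feeder-supported HSF1 arrays these were 0.07 (adjusted p = 0.733) and 0.67 (adjusted p = 0.0129).

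NDRG1 encodes a cytoplasmic protein of stress responses and differentiation that hypoxia is known to induce. It was higher on feeders, at 7.57, 7.31 and 7.71 in FS_MCT1i cells of H1, H9 and HSF1, against 6.60, 6.82 and 7.15 in FF_MCT1i cells. The difference was 0.67, or 1.59-fold (SE 0.190, adjusted p = 0.0188, 3 of 3 lines). The call held in 9 of 12 alternatives. It ended without H1 (0.52, adjusted p = 0.162), without H9 (0.76, adjusted p = 0.0686) and with the ACTB difference as a covariate (0.64, adjusted p = 0.152). Without both feeder-supported HSF1 arrays the difference was 0.66 (adjusted p = 0.017). With DMSO it stood at 7.68, 7.18 and 7.39 in FS cells, against 7.10, 6.78 and 6.93 in FF cells, again without overlap. There the difference of 0.48 did not pass (SE 0.190, adjusted p = 0.0586), and it was 0.57 without those arrays (adjusted p = 0.0282). In the medium part NDRG1 lay between 6.47 and 6.82 on all 12 arrays, with differences of 0.13 in HSF1 and -0.08 in H9 cells (adjusted p = 0.324 and 0.556).

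**Figure D4:**
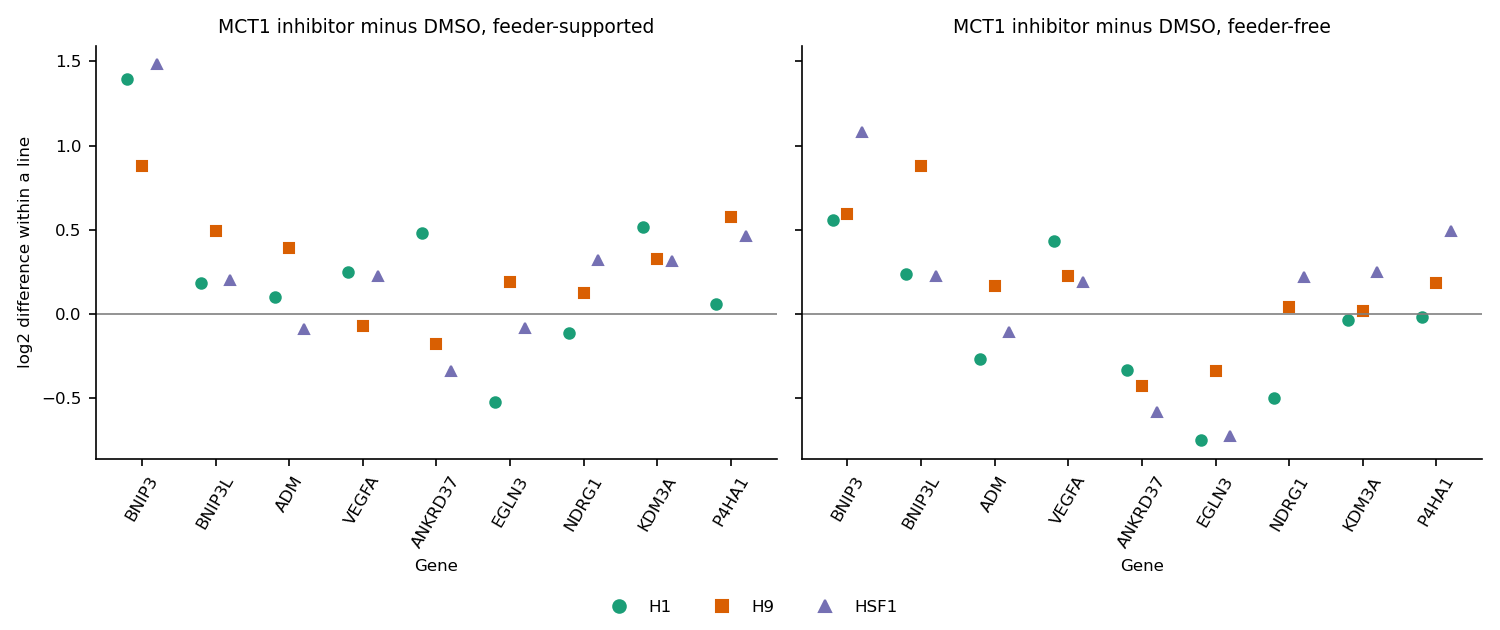
Log2 difference of the MCT1 inhibitor minus DMSO (y axis) within each line for the 9 genes (x axis), in feeder-supported cells on the left and feeder-free cells on the right. BNIP3 is above 0 in all 6 pairs, and EGLN3 and ANKRD37 are below 0 in all 3 feeder-free pairs.

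HIF1A and EPAS1, alpha subunits of HIF, passed neither on feeders with DMSO nor in conditioned medium. HIF1A, the main oxygen-regulated alpha subunit, differed by -0.21 on feeders with DMSO, by -0.01 in HSF1_CM and by -0.04 in H9_CM (adjusted p = 0.174, 0.934 and 0.729). Under AZD3965 it was lower in 6 of 6 pairs by a mean of -0.18 (adjusted p = 0.694 with line as a block, 0.0108 with each pair as a block). On feeders with the inhibitor HIF1A differed by -0.35 (adjusted p = 0.0401). HIF3A, another alpha subunit, was higher by 0.33 in HSF1_CM (adjusted p = 0.0254). EPAS1, EGLN1, the main HIF hydroxylase, and VHL passed in none of the feeder, medium and mean inhibitor comparisons. Of 16 listed genes of oxygen sensing, 2 were higher and 2 lower on feeders with DMSO, 2 and 1 in HSF1_CM, and 0 and 1 in H9_CM, and after quantile normalization 3 and 1 on feeders. The shares of all genes were 15.2% and 24.1% on feeders, 8.57% and 9.78% in HSF1_CM, and 3.45% and 13.0% in H9_CM. CITED2, which competes with HIF for its co-activator, was higher on feeders by 2.22 (SE 0.284, adjusted p = 0.000997) and in HSF1_CM by 0.83 (SE 0.105, adjusted p = 3.8e-05). ARNT2, a partner subunit, was lower on feeders with DMSO and in both lines in CM, with differences of -0.84 on feeders, -0.40 in HSF1_CM and -0.62 in H9_CM (adjusted p = 0.0101, 0.00422 and 0.000156).

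Of 19 glycolytic HIF targets 10 were lower and none higher with DMSO in FS cells, against the 24.1% of genes that were lower, and 8 and none after quantile normalization. ALDOC and ENO2, an aldolase and an enolase, were lower, with differences of -1.49 and -1.52 (adjusted p = 0.00319 and 0.00907), and PDK1, which restrains pyruvate entry into mitochondria, was at -0.90 (adjusted p = 0.0202). LDHA, which makes lactate, did not pass there (-0.33, adjusted p = 0.0961). In HSF1_CM 6 of the 19 were higher and none lower, against 8.57% and 9.78% of all genes. Among the 6 were PFKFB3, an activator of glycolysis, higher by 0.43, and LDHA, higher by 0.23 (adjusted p = 0.00186 and 0.0122). In H9_CM 3 were higher and 2 lower, against 3.45% and 13.0% of all genes. PDK1 was at -0.44 there (adjusted p = 0.0319), and at -0.14 without replicates 2 and 3 of H9_UCM. Under AZD3965 PDK1 was higher in 6 of 6 pairs by a mean of 0.80 (adjusted p = 0.0712 with line as a block, 6.67e-05 with each pair as a block), while LDHA differed by -0.08 (adjusted p = 0.989 and 0.188).

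Other listed HIF targets went both ways on feeders and in conditioned medium. On feeders with DMSO 5 of 28 were higher and 5 lower, against 15.2% and 24.1% of all genes (5 and 1 after quantile normalization). The rises were led by LOX, a matrix cross-linking enzyme (1.56, adjusted p = 0.00129), ANGPTL4, a regulator of lipoprotein lipase (0.72, adjusted p = 0.0134), and CXCR4, a chemokine receptor (2.02, adjusted p = 0.0166). In HSF1_CM 9 of 27 were higher and 2 lower, against 8.57% and 9.78% of all genes. PPFIA4 was higher by 0.89 and DDIT4, an inhibitor of mTOR signalling, by 0.75, while BHLHE41, a transcriptional repressor, was lower, with a log2 difference of -1.03 (adjusted p = 1.67e-06, 1.22e-05 and 7.34e-05). In H9_CM 4 were higher and 3 lower, against 3.45% and 13.0% of all genes. Among them were DDIT4 at 0.58, BHLHE40, a relative of BHLHE41, at 0.62 and STC2, a secreted glycoprotein, at -0.57 (adjusted p = 0.000252, 0.00169 and 0.000113).

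Of 18 tested paralogs of the members, 3 were higher and 2 lower on feeders with DMSO, 3 and 2 in HSF1_CM, and 1 and 1 in H9_CM. The shares of all genes were 15.2% and 24.1% on feeders, 8.57% and 9.78% in HSF1_CM, and 3.45% and 13.0% in H9_CM. NDRG2, a relative of NDRG1, was higher by 0.45 in HSF1_CM (adjusted p = 0.00079).

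Among themselves the members did not form 1 pattern. After centring each gene within each line and part, the correlation with the mean of the 9 members over the 24 arrays was 0.82 for BNIP3 and 0.81 for P4HA1, but 0.10 for VEGFA. Each member is itself part of that mean. For ADM the correlation was 0.90 over the 12 arrays of the inhibitor part and -0.73 over the 12 of the medium part. The 5 genes outside the set that were most like this mean were USP53 (0.92), FRMD6 (0.91), KITLG (0.90), RAB20 (0.88) and LAMB1 (0.87). These correlations describe 24 arrays that share lines and conditions. Both feeder-supported HSF1 arrays are among them, and no correlation without those arrays is given.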

How the data were processed

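Total RNA of 24 cultures was labelled with biotin and hybridised to human expression arrays, 1 culture per array. The deposited table holds log2 values that the authors made with RMA, per the submitters' processing notes. Which RMA version was used and whether 1 run covered the 24 arrays is not given in the sources used here. Of 54675 probe sets in the table, 41097 had 1 gene symbol in the platform annotation, 1801 had several and 11777 had none.

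The log2 values were used as deposited. Where a gene had several probe sets, the one with the highest mean over the 24 arrays stood for it. The test took genes with 3 or more of a part's 12 arrays above 5, which left 17218 genes for the inhibitor and 16572 for the medium. Differences were tested with limma 3.58.1 (R 4.3.3, lmFit and eBayes with a trend), with Benjamini-Hochberg adjustment over all genes of a part and a threshold of 0.05. The 3 lines entered the inhibitor fit as a block. A line gives its replicate number to every group, so the numbers pair the arrays there: deviations of inhibitor and DMSO arrays of the same line and system correlated at 0.69 to 0.92. Values with each such pair as a block are given beside the results. Between FS and FF arrays of H1, H9 and HSF1 the correlations were lower, at 0.48, 0.20 and 0.06 with DMSO. With the inhibitor they were 0.41, 0.05 and 0.07. The labels do not say that replicate numbers pair the medium arrays, where correlations were -0.27 to 0.13. The fits were tested on simulated data.

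With line as a block, p-values of the inhibitor part measure the spread left after a constant shift per line. That spread holds differences between lines in the feeder effect as well as in the response to the inhibitor. With each pair as a block, they measure how alike the pairs respond to the inhibitor. Medium p-values measure the spread between replicates of a line. Precision is limited by how few arrays each group holds. The members, the gene lists and the rule for named genes were chosen with earlier results of these data known. The rule named every member, up to 3 genes of each list with the smallest p in a comparison (feeders with DMSO, the mean inhibitor effect, and the medium in each line), the 5 genes most like the members' mean, and always HIF1A, EPAS1, EGLN1, VHL, PDK1 and LDHA. COL3A1 and CDH5 were named after their values were seen. Alternatives were the probe-set fit, other filters, quantile normalization, the mean of all probe sets, ACTB as a covariate, array weights, other blocks and leaving out arrays.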

Additional observations from a re-analysis of the deposited data

Results flagged for a closer look

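The effect of conditioned medium on ANKRD37 differed between the lines by a test of that difference. HSF1 minus H9 cells gave 0.53 on the log2 scale (SE 0.140, limma, adjusted p = 0.0318), from effects of 0.74 in HSF1 and 0.21 in H9 cells. The call held in 9 of 21 alternatives, with values of 0.31 to 0.59 and the same sign in all 21. It was lost without replicates 2 and 3 of H9_UCM (0.44, adjusted p = 0.103).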

How the results depend on the processing

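VEGFA on feeders, BNIP3 and ADM in conditioned medium in both lines, EGLN3 in H9_CM, and ANKRD37 and P4HA1 in HSF1_CM passed under every alternative run. The number of members called on feeders with DMSO, 2 in the report, was 1 with ACTB as a covariate, 1 with no replicate block, 4 without both feeder-supported HSF1 arrays, and 1 to 2 when a line was left out. With the inhibitor, 4 in the report, it was 2 after quantile normalization, 2 with the ACTB covariate, 2 with no replicate block, 7 without those HSF1 arrays, and 1 to 6 when a line was left out. For the inhibitor the counts of 0 became 3 (FS), 3 (FF) and 6 (mean) with array weights. In that fit 1938 (FS) and 5888 (mean) of all 17218 genes passed. The member counts were 1, 3 and 6 with each pair as the replicate block, where 0.499%, 14.0% and 15.9% of genes passed. Without those HSF1 arrays they were 1 (FF) and 1 (mean), with 0 to 1 for the mean when a line was left out. The count over all genes without those HSF1 arrays is not given. For the difference between lines, 1 in the report, the count was 0 in the probe-set fit, 2 with a filter at 6, 0 with the mean of probe sets, 4 with array weights, 0 without H9_UCM replicates 2 and 3, and 0 to 4 when an array was left out. The replicate block of the medium part gave 3 in H9, 6 in HSF1 and 1 for the difference. Among values past the threshold before or after the change, directions reversed for ADM on feeders with DMSO without the HSF1 arrays (0.52), for LOXL2 there with the mean of probe sets (0.0195), and for EGLN1 with the inhibitor on feeders with array weights (0.705). Values that never passed changed sign as well: on feeders with DMSO, BNIP3 kept its sign in 7 of 12 alternatives. Over all genes, calls on feeders ran from 351 (ACTB covariate) to 11360 (array weights) with DMSO, 6772 in the report, and from 749 to 12282 with the inhibitor, 8103 in the report, leaving aside the probe-set fit, which counts probe sets. The inhibitor gave 0 to 1938 (FS, 1 in the report), 3 to 2413 (FF, 145) and 2 to 5888 (mean, 110), and its difference between systems 0 to 144 (3 in the report). The highest of these counts came with array weights, except in FF cells, where it came with each pair as a block. Conditioned medium gave 653 to 5286 in H9 (2720) and 1852 to 4770 in HSF1 cells (3040), and its difference between lines 512 to 3281 (1281). The causes of these shifts were not tested.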

Other observations

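The effect of AZD3965 on LDHA, which makes the lactate that MCT1 carries, differed between the culture systems with each pair of arrays as a block, as it did for no member. LDHA differed by 0.14 in FS cells (adjusted p = 0.295) and by -0.30 in FF cells (adjusted p = 0.00342), and the difference between these effects was 0.44 (SE 0.080, adjusted p = 0.0249). With line as a block the difference did not pass (adjusted p = 1.00).

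With each pair as a block, 7 of 11 collagen-modifying enzymes and 5 of 28 other HIF targets were higher under AZD3965 for the mean of both systems, and none of either list was lower, against 15.9% of all genes changed in either direction, a share that 5 of 28 is near. Other lists moved otherwise in that fit: 5 of 19 glycolytic HIF targets were higher and 1 lower, 1 of 16 genes of oxygen sensing was higher and 3 lower, and of 8 pluripotency markers none was higher and 5 were lower. With line as a block 0 of either list passed. PLOD1, a lysyl hydroxylase, differed by 0.43 and was higher in 6 of 6 pairs (adjusted p = 0.384 with line as a block). ERO1A, which forms disulfide bonds in secreted proteins, differed by 0.69 and was higher in 6 of 6 pairs (adjusted p = 0.272 with line as a block).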
